A study of Mus musculus with 15 samples.

Results

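Expression of 7 genes, Upk3b, Upk1b, Msln, Wt1, Krt8, Krt18 and Krt19, was followed in mouse brain tumours of 2 models. They are uroplakins, mesothelial genes and keratins of simple epithelia, and make up 7 of the 24421 genes in the deposited tables. They were selected on the read counts of the control tumours, because Upk3b had no reads in HGG controls and was high in EPN controls. The difference between these control groups is therefore given only as a description.

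RNA was sequenced from 15 tumour libraries, 3 in each of 5 groups labelled EPN Sox9-GOF, EPN control, HGG Sox9-GOF, HGG Sox9-LOF and HGG control. EPN stands for ependymoma, a tumour resembling the cells that line the ventricles, and HGG for high-grade glioma. GOF and LOF mean gain and loss of function of Sox9, a transcription factor of glial development. How the tumours were started, how Sox9 was altered, the strain, the age of the mice and whether each library is 1 animal are not given in the labels used here, so p-values measure the spread between these libraries.

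Depth ran from 4665428 to 14119140 reads per library, with a median of 10578708. Sox9 averaged 2194 ± 446 normalized counts in EPN Sox9-GOF, against 1091 ± 84.4 in EPN controls (SD, n = 3 each). It averaged 1401 ± 131 in HGG Sox9-GOF and 571 ± 172 in HGG Sox9-LOF, against 271 ± 47.6 in HGG controls (SD, n = 3 each). All 3 libraries labelled HGG Sox9-LOF lay above all 3 HGG controls. The label names a loss of function and gives no transcript level, so whether these counts bear on it cannot be told. Genes of glial and neural identity were detected in all groups, with none of the 12 at 0 reads in any of them.

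Uroplakins form the rigid plaques on the surface of the bladder's umbrella cells, where tetraspanin members (Upk1a, Upk1b) pair with single-span members (Upk2, Upk3a, Upk3b). Upk3b, Msln and Wt1 are also classical genes of the mesothelium, the sheet that lines body cavities. Keratin filaments are built from a type I chain and a type II chain, and KRT18 (type I) with KRT8 (type II) is the standard pair of simple epithelia, including the choroid plexus of the brain. KRT19 is a second type I chain of simple epithelia.

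Each gene was located in GENCODE M21, which is built on GRCm38 (mm10). Krt8 (ENSMUSG00000049382.10) lies on the minus strand at chr15:101996698-102004482, and Krt18 (ENSMUSG00000023043.7) on the plus strand at chr15:102028180-102032027. They are direct neighbours that are read away from each other, with 23697 bases between them. Krt19 (ENSMUSG00000020911.14) lies apart from both, at chr11:100140810-100148665 on the minus strand. Upk3b (ENSMUSG00000042985.7) lies at chr5:136038496-136046487 on the plus strand and Upk1b (ENSMUSG00000049436.5) at chr16:38773184-38800328 on the minus strand. Msln (ENSMUSG00000063011.7) lies at chr17:25748613-25754378 on the minus strand and Wt1 (ENSMUSG00000016458.14) at chr2:105126529-105173616 on the plus strand.

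RefSeq promoter sequences (GRCm38.p6) were at hand for 3 of the 7 genes. They are shown because Krt18 and Upk3b carry the contrast between the models and Krt8, the neighbour of Krt18, does not follow it. Each is written 5′ to 3′ on the strand of its gene, from 250 bases before the RefSeq start to 30 bases after it. The Upk3b window is chr5:136038246-136038525, the Krt18 window chr15:102027966-102028245 and the Krt8 window chr15:102004313-102004592. Capitals mark every match to a searched motif.
Upk3b: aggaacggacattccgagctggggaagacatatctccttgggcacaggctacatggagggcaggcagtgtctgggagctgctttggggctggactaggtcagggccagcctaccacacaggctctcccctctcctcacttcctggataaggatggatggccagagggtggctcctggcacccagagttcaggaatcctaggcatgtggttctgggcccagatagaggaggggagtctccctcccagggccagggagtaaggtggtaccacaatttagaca
Krt18: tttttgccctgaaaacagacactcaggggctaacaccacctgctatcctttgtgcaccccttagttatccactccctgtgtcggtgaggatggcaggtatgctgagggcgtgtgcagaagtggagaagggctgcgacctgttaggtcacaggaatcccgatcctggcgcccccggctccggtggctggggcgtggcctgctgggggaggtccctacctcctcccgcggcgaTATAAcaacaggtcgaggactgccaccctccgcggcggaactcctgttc
Krt8: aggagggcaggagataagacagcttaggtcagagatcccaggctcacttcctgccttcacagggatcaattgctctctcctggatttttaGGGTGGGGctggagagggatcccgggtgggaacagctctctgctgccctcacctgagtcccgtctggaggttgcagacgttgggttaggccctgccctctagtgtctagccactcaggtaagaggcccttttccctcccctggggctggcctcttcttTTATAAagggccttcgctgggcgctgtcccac
In Krt18 the capitals are TATAA, the core of a TATA box, which starts 19 bases before the RefSeq start. In Krt8 they are GGGTGGGG, a match to a KLF or SP motif (GGGNGGGG) that starts 160 bases before the start, and a stretch holding TATAA on both strands at the start itself. Over all 32851 promoters of the table, 24.0% held TATAA and 32.6% held GGGNGGGG on either strand in windows of the same length. The other motifs searched were SOX (AACAAT), NF-kB, AP-1 (TGANTCA), grainyhead-like (AACCGGTT) and WT1 or EGR (GCGNGGGNG), held by 10.3%, 1.37%, 7.46%, 0.131% and 11.7% of promoters. None of these letters occurs in the 3 windows.

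Upk3b was abundant in every EPN library and close to absent from HGG. It had 938, 269 and 1692 normalized counts in EPN Sox9-GOF libraries 1 to 3, and 762, 816 and 3124 in EPN controls 1 to 3. All 9 HGG libraries together gave 1 Upk3b read, in HGG Sox9-GOF library 1, while the 6 HGG Sox9-LOF and control libraries gave 0. The EPN groups overlapped, with the highest and the lowest library in different groups, and neither came near any HGG library. Per transcript length, Upk3b stood at 89.3 ± 67.0 TPM, which scales reads by exon length and library total, in EPN Sox9-GOF and 154 ± 137 TPM in EPN controls (SD, n = 3 each), above 91.1% and 95.1% of the 23358 genes with a length.

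Upk1b, the tetraspanin, was low everywhere. It had 3.61, 6.10 and 21.1 normalized counts in EPN Sox9-GOF and 43.3, 14.7 and 37.3 in EPN controls. HGG Sox9-GOF libraries had 4.31, 15.4 and 12.3, HGG Sox9-LOF libraries 2.34, 2.27 and 11.1, and HGG controls 0.794, 2.05 and 4.26. The EPN groups overlapped, while every HGG Sox9-GOF library lay above every HGG control. Those HGG values rest on 41 reads in HGG Sox9-GOF and 8 in HGG controls.

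Wt1, a zinc finger transcription factor of mesothelium, kidney and gonad, followed Upk3b. It had 1399, 556 and 1959 normalized counts in EPN Sox9-GOF and 1700, 976 and 1906 in EPN controls. In HGG it reached 22.3, 2.20 and 7.02 in Sox9-GOF, 16.4, 3.41 and 0 in Sox9-LOF, and 4.76, 0 and 2.84 in controls. The EPN groups overlapped, and the lowest EPN library was far above the highest HGG library. Wt1 stood at 68.5 ± 39.0 TPM in EPN Sox9-GOF and 84.3 ± 28.3 TPM in EPN controls (SD, n = 3 each).

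Msln, which encodes the surface protein mesothelin, did not share this pattern. It had 0.721, 30.5 and 11.5 normalized counts in EPN Sox9-GOF, against 167, 31.6 and 66.9 in EPN controls. HGG Sox9-GOF libraries had 23.0, 36.0 and 44.7 and HGG Sox9-LOF libraries 29.2, 39.7 and 7.79, against 1.59, 2.05 and 36.9 in HGG controls. Each EPN Sox9-GOF library lay below each EPN control, though EPN Sox9-GOF library 2 and EPN control 2 differed little. In HGG the groups overlapped through control 3.

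Krt18 was high in both EPN groups. It had 523, 1293 and 3591 normalized counts in EPN Sox9-GOF and 476, 238 and 909 in EPN controls. HGG Sox9-GOF libraries had 0.718, 5.14 and 26.3 and HGG Sox9-LOF libraries 10.5, 5.68 and 66.8, against 359, 4.10 and 2.13 in HGG controls. HGG control 1 was the one HGG library within the range of the EPN libraries. By TPM, Krt18 ranked 385 of 23358 genes in EPN Sox9-GOF (400 ± 366 TPM) and 1414 in EPN controls (130 ± 85.4 TPM; SD, n = 3 each).

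Krt8, the usual partner of Krt18, was low in EPN. It had 5.05, 14.8 and 5.76 normalized counts in EPN Sox9-GOF and 9.51, 2.25 and 6.22 in EPN controls. HGG Sox9-GOF libraries had 0, 3.67 and 18.4 and HGG Sox9-LOF libraries 3.51, 4.54 and 35.6, against 250, 2.05 and 0.710 in HGG controls. Outside HGG control 1, Krt8 was thus low in all groups, with overlapping ranges. Krt19 was low too, at 7.93, 14.8 and 36.5 normalized counts in EPN Sox9-GOF and 41.2, 5.64 and 63.8 in EPN controls. HGG Sox9-GOF gave 3 Krt19 reads in all, HGG Sox9-LOF 7 and HGG controls 1.

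**Figure D1:**
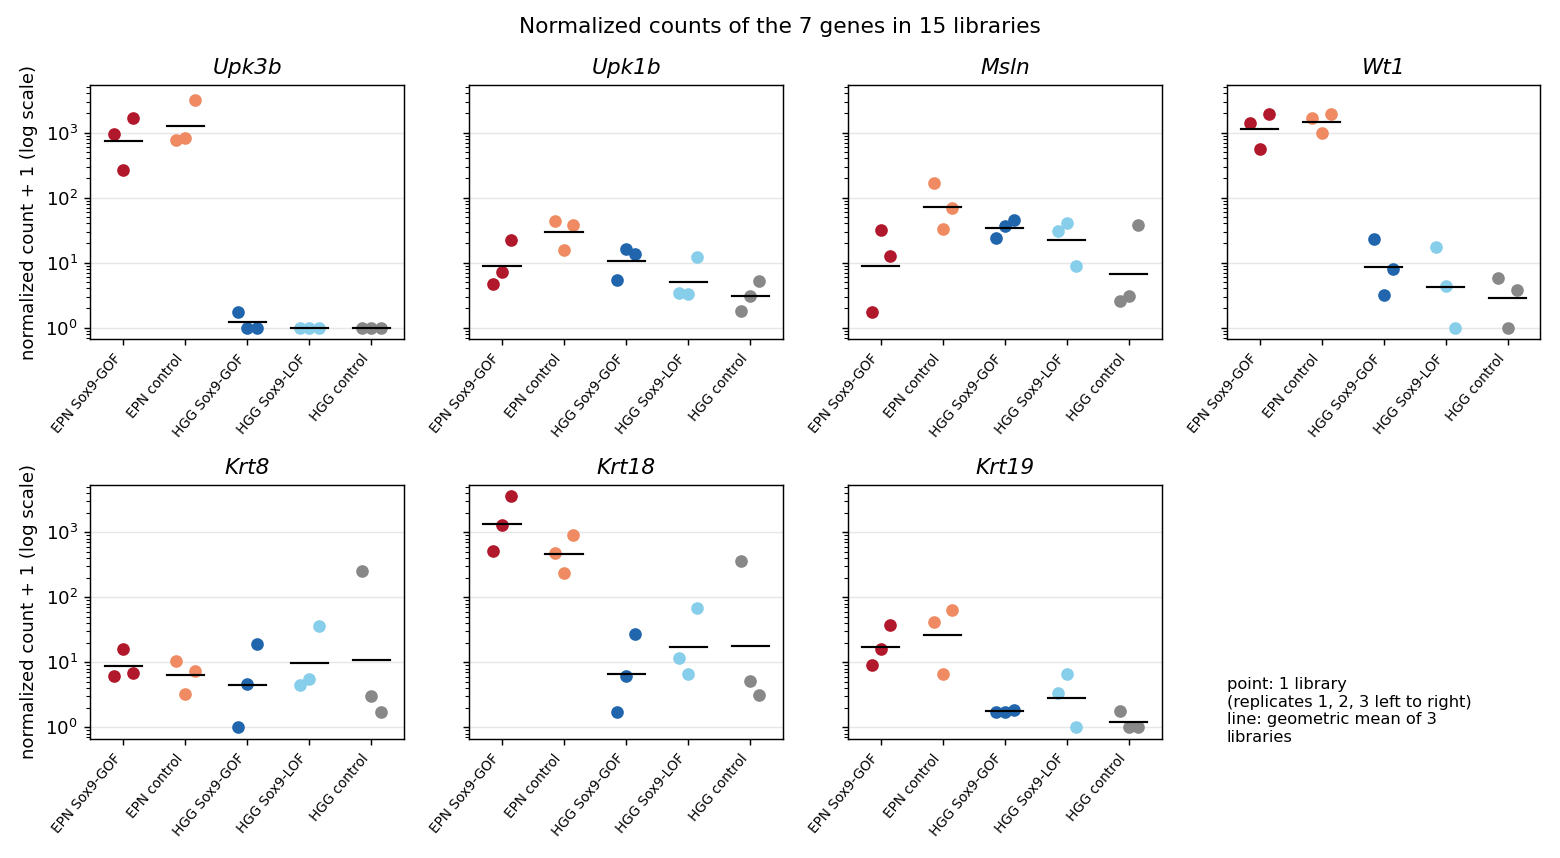
Normalized count + 1 on a log axis for each of the 7 genes. Each point is 1 library, grouped left to right as EPN Sox9-GOF, EPN control, HGG Sox9-GOF, HGG Sox9-LOF and HGG control, and each line is the geometric mean of 3 libraries. Upk3b and Wt1 separate the EPN libraries from all HGG libraries, Krt18 does so except for HGG control 1 at 359, and Upk1b, Msln and Krt8 do not.

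In order of TPM, the EPN Sox9-GOF means ran Krt18, Upk3b, Wt1, Krt19, Upk1b, Msln and Krt8, with the last 4 between 3.39 and 1.34 TPM. In EPN controls the order was Upk3b, Krt18, Wt1, Msln, Krt19, Upk1b and Krt8, with the last 4 between 9.74 and 1.04 TPM. Within the leading 3 genes of either group, and within the 4 low ones of EPN Sox9-GOF, the library ranges of neighbours in the order overlapped. The leading 3 and the low ones did not overlap in either group, the lowest value of the leading 3 being 22.1 TPM, a level that none of the others reached.

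As a description of the controls that the choice rested on, Upk3b was at least 1470-fold higher in EPN controls than in HGG controls, taking a floor of 3 reads over the HGG group. The ratio of normalized reads was 471 for Wt1, 108 for Krt19 (1 read in HGG controls, 95% counting interval 18.9 to 4330) and 12.4 for Upk1b. For Msln it was 5.31, for Krt18 3.47 and for Krt8 0.0603, and for these 3 genes the groups overlapped. Each of these 3 ratios rests on 1 HGG control library. HGG control 1 held 452 of the 457 Krt18 reads and 315 of the 317 Krt8 reads of its group, and HGG control 3 held 52 of the 55 Msln reads. Without that library, the ratio was 191 for Krt18 (95% counting interval 81.5 to 589, 5 HGG reads), 5.74 for Krt8 (1.34 to 51.7, 2 HGG reads) and 53.9 for Msln (18.2 to 263, 3 HGG reads).

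The model difference was then tested in the Sox9-GOF tumours, whose values were not part of the rule that selected the genes. The genes and the tests were still chosen with earlier results of these data known, so the test is not independent. Upk3b, Wt1, Krt18 and Krt19 were higher in EPN Sox9-GOF than in HGG Sox9-GOF, in 3 of 3 libraries each, while Upk1b and Msln passed no threshold. On the log2(normalized count + 1) scale, the difference was 9.54 for Upk3b (SE 0.71, adjusted p = 0.000138, limma with Benjamini-Hochberg adjustment over 15219 genes). It was 7.13 for Wt1 (SE 0.78, limma adjusted p = 0.000453), 7.73 for Krt18 (SE 1.08, limma adjusted p = 0.0012) and 3.43 for Krt19 (SE 0.71, limma adjusted p = 0.00696). In this comparison limma called 40.5% of all genes, 19.1% as higher and 21.4% as lower, and the 2 groups did not overlap for 54.7%, so a call is common here. The ratios of normalized reads were 3670 for Upk3b, 120 for Wt1 and 171 for Krt18. The Upk3b ratio rests on 1 HGG Sox9-GOF read (95% counting interval 659 to 145000), and the Krt19 ratio of 24.0 on 3 (7.85 to 119). The fitted differences of these 2 genes moved with the method, to 6.81 and 1.69 with a pseudocount of 8 and to 11.75 and 4.65 with DESeq2.

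Upk1b differed by -0.24 (SE 0.78, limma adjusted p = 0.828) and Msln by -2.03 (SE 1.04, limma adjusted p = 0.156) between these groups. Krt8 fell below the minimum mean of 10 normalized counts, and tested without that minimum it differed by 1.02 (limma adjusted p = 0.513). Upk3b and Krt19 passed the minimum only through the EPN libraries, so that both had to differ to be tested. Wt1 and Krt18 averaged 10.5 and 10.7 normalized counts in HGG Sox9-GOF, just above the minimum of 10. Only the highest HGG Sox9-GOF library was above 10, at 22.3 for Wt1 and 26.3 for Krt18. The minimum thus bound the tests of Wt1 and Krt18 almost as closely. In bulk tissue, fewer cells of a type and less RNA per cell cannot be told apart.

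Sox9-GOF was set against controls within each model next. None of the 7 genes passed the threshold in EPN, where limma called 0% of 14591 genes (0 genes, with 2196 at an unadjusted p below 0.05). edgeR's quasi-likelihood test on recovered reads also called 0 genes, and DESeq2 called 842, none of them among the 7. Both used the same minimum, so Krt8, which was below it, could not be called. The log2 differences were -0.68 for Upk3b (SE 0.77, limma adjusted p = 0.737), -0.30 for Wt1 (SE 0.48, 0.812) and 1.56 for Krt18 (SE 0.73, 0.372). They were -1.69 for Upk1b (SE 0.73, limma adjusted p = 0.337), -2.99 for Msln (SE 1.10, 0.266) and -0.55 for Krt19 (SE 0.94, 0.829). The Msln groups did not overlap, with 48 reads in EPN Sox9-GOF and 229 in EPN controls, as was so for 22% of all genes tested. An exact permutation test of 3 libraries against 3 cannot go below the p = 0.1 it gave for Msln. Krt8 was below the minimum, with a log2 difference of 0.50 without it (limma adjusted p = 0.776).

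In HGG, limma called 0% of 15092 genes for Sox9-GOF against controls (0 genes, with 3420 at an unadjusted p below 0.05). edgeR called 0 genes and DESeq2 2260, under the same minimum. Only Msln, Krt8 and Krt18 passed it and could be called, and none of them was. Of 13 alternatives, 12 gave Krt8 and Krt18 an adjusted p. Msln differed by 2.41 on the log2 scale (SE 1.10, limma adjusted p = 0.258), Krt8 by -1.29 (SE 2.13, 0.764) and Krt18 by -1.43 (SE 2.00, 0.715). Upk1b, Wt1, Krt19 and Upk3b were below the minimum. Without it, Upk1b differed by 1.82 (limma adjusted p = 0.205), and its 2 groups did not overlap, as was so for 30.5% of the genes tested. Without HGG control 1, the Krt8 and Krt18 differences were 0.99 and 0.74, so their sign rests on that library.

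For the libraries labelled HGG Sox9-LOF against the same controls, limma called 0% of 14861 genes (0 genes, with 2564 at an unadjusted p below 0.05). edgeR called 0 genes and DESeq2 1339, under the same minimum. Here too only Msln, Krt8 and Krt18 could be called, and none of them was. Of 13 alternatives, 12 gave Krt8 and Krt18 an adjusted p. Msln differed by 1.69 (SE 1.22, limma adjusted p = 0.51), Krt8 by -0.20 (SE 1.97, 0.969) and Krt18 by -0.06 (SE 1.90, 0.99). Without HGG control 1, Krt8 and Krt18 differed by 2.03 and 2.08. The 2 groups overlapped for each of the 7 genes, while 24.5% of the genes tested had groups that did not. The other 4 genes were below the minimum, and Upk3b had no read in any of these 6 libraries.

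**Figure D2:**
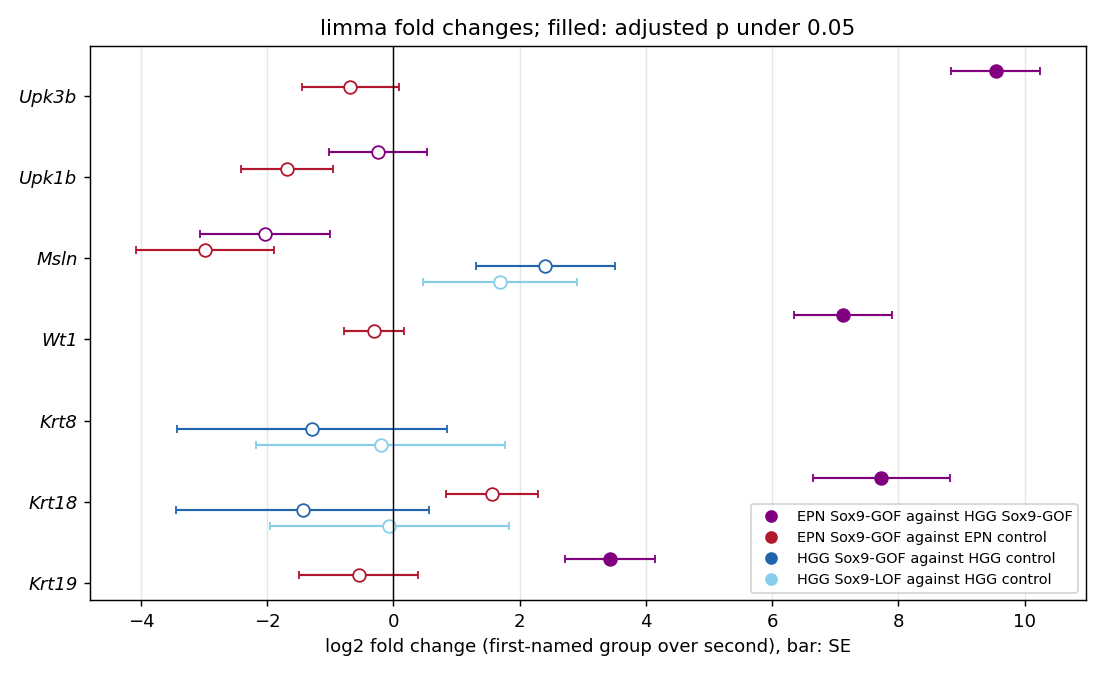
limma log2 fold changes with SE bars for each gene that passed the minimum, the first-named group over the second. The 4 filled points, for Upk3b, Wt1, Krt18 and Krt19 in EPN Sox9-GOF against HGG Sox9-GOF, have an adjusted p below 0.05, and all open points lie between -2.99 and 2.41.

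Krt18 was expressed almost without Krt8 in EPN, while in HGG their levels lay within a few fold of each other. EPN Sox9-GOF libraries held 5948 Krt18 reads and 30 Krt8 reads, which is 270 Krt18 reads per Krt8 read after division by exon length (95% exact binomial interval 189 to 401, counting error only). EPN controls held 1246 and 15 reads, a ratio per length of 113 (68.4 to 203). The ratio was 1.99 in HGG Sox9-GOF (1.18 to 3.42), 2.59 in HGG Sox9-LOF (1.73 to 3.91) and 1.96 in HGG controls (1.70 to 2.27). By library, it ran from 119 to 849 in EPN Sox9-GOF and from 68.3 to 199 in EPN controls, and no HGG library with a Krt8 read exceeded 4.09. HGG control 1, with almost all of its group's keratin reads, had a ratio of 1.96, and the other HGG controls together had 3.41 (0.558 to 35.8). The log2 ratio, with 0.5 added to each count and without division by length, was 7.39 ± 1.54 in EPN Sox9-GOF and 0.846 ± 0.641 in HGG Sox9-GOF (SD, n = 3 each; two-sided exact permutation p = 0.1, the smallest possible).

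**Figure D3:**
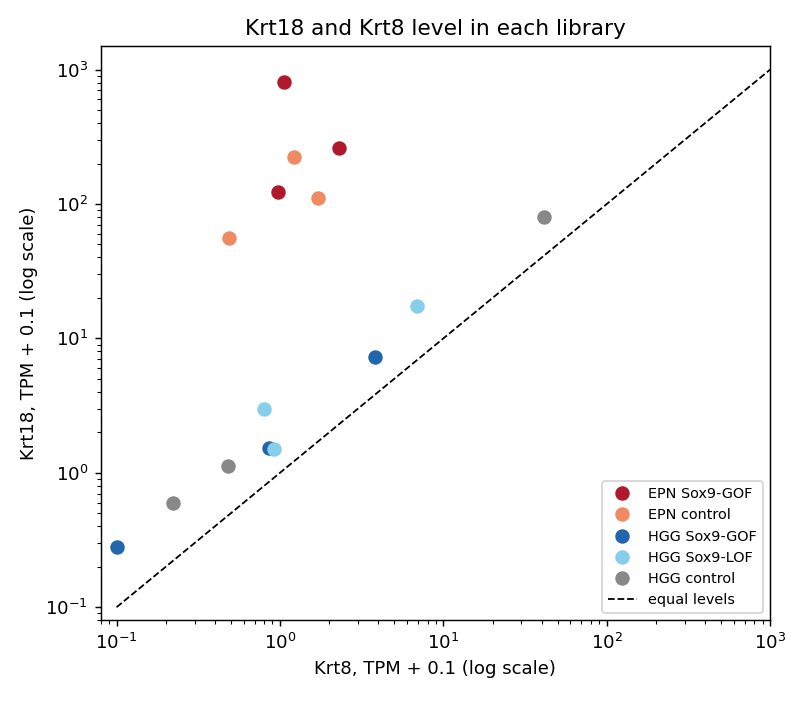
Krt18 level against Krt8 level per library, both as TPM + 0.1 on log axes, with a dashed line of equal levels. The 6 EPN libraries lie far above the line at Krt8 levels of at most 2.20 TPM, and the 9 HGG libraries run along it, HGG control 1 highest at 41.2 TPM of Krt8 and 80.6 TPM of Krt18.

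No type II keratin was abundant in EPN. This survey of the keratins was added after the values had been seen, and took type I and type II from the gene clusters on chromosomes 11 and 15. Krt18, which lies on chromosome 15, was counted as type I. The 23 type II keratins with a length summed to 2.24, 5.07 and 2.94 TPM in EPN Sox9-GOF and 4.54, 3.71 and 5.95 TPM in EPN controls, with Krt8 itself the highest in both. The 27 type I keratins summed to 139, 280 and 892 TPM in EPN Sox9-GOF and 171, 79.4 and 273 TPM in EPN controls. Krt18 led them, followed by Krt17, a keratin of basal and hair follicle cells, at 25.1 and 24.8 TPM in these 2 groups. In HGG the sums of both types lay closer together. Type II sums were 20.1, 26.8 and 96.2 TPM in HGG Sox9-GOF, 13.1, 13.4 and 20.8 TPM in HGG Sox9-LOF, and 47.8, 18.8 and 10.4 TPM in HGG controls. Type I sums were 22.7, 26.7 and 44.4 TPM in HGG Sox9-GOF, 35.4, 20.8 and 45.1 TPM in HGG Sox9-LOF, and 93.6, 26.6 and 38.3 TPM in HGG controls.

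Part of the Krt8 and Krt18 counts could belong to near-identical copies. Krt8-ps, a processed pseudogene, matches Krt8 at 98.6% over 941 bases, and Gm5200 matches Krt18 at 90.4% over 1267 bases. Neither has an entry in the tables, and how reads with several matches were counted is not given in the sources used here. No other of the 7 genes had a copy of at least 90% identity over at least 100 bases. The lincRNA Gm36026 overlaps Krt8 on the opposite strand by 101 exon bases.

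In HGG, the libraries with the most Krt8 and Krt18 were those with the most choroid plexus RNA. The choroid plexus is the epithelium that makes cerebrospinal fluid, and Ttr, which encodes transthyretin, is its most abundant product. The summed normalized counts of 15 choroid plexus genes were 3314, 4463 and 17589 in HGG Sox9-GOF, 2811, 1614 and 37008 in HGG Sox9-LOF, and 137412, 3994 and 2526 in HGG controls. HGG Sox9-GOF library 3, HGG Sox9-LOF library 3 and HGG control 1 were highest of their groups for the choroid plexus genes, Krt8 and Krt18 alike, with 9150, 23243 and 105040 normalized counts of Ttr.

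Over the 9 HGG libraries, the choroid plexus sum and Krt8, each on a log2 scale, had a Pearson r of 0.918 (exact permutation p = 0.00189, adjusted 0.00378 over 4 relations) and a Spearman rho of 0.667 (exact permutation p = 0.0589, adjusted 0.133). For Krt18 r was 0.921 (exact permutation p = 0.00163, adjusted 0.00378) and rho 0.65 (exact permutation p = 0.0666, adjusted 0.133). Without HGG Sox9-LOF library 3 and HGG control 1, r was 0.625 for Krt8 (exact permutation p = 0.149) and 0.615 for Krt18 (p = 0.147). In these 7 libraries r thus stayed positive, while the small p-values were not kept. The part of choroid plexus tissue in the HGG keratin values was not tested. Over the 6 EPN libraries r was 0.317 for Krt8 (rho 0.543) and 0.195 for Krt18 (rho 0.257), with exact permutation p = 0.542 and 0.685 for r.

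The EPN libraries held little Ttr, while their choroid plexus sums lay within the range of the HGG libraries, 1614 to 137412. In EPN, Ttr counts lay between 1.44 and 32.3, and Otx2, a transcription factor of the choroid plexus, had no reads in either group. The 15 genes summed to 2047 to 5175 in EPN Sox9-GOF and 4467 to 8218 in EPN controls. Aqp1 and Cldn2, a water channel and a tight junction protein of the same epithelium, were higher in EPN Sox9-GOF than in HGG Sox9-GOF, by 3.93 and 6.96 on the log2 scale (limma adjusted p = 0.000596 and 0.00126), and Steap1, a metalloreductase, by 1.99 (0.00892). Kl, which encodes klotho, and Enpp2, which encodes autotaxin, were lower. Kl had 3 reads in EPN Sox9-GOF and 292 in HGG Sox9-GOF, a ratio of normalized reads of 0.0112 (95% counting interval 0.0023 to 0.033, limma adjusted p = 0.00689), and Enpp2 differed by -1.86 (limma adjusted p = 0.0275). Of the 12 choroid plexus genes tested, apart from the keratins, 3 were thus higher and 2 lower, with a median of -1.18. That is 41.7% called, close to the 40.5% of all genes called in this comparison. Of the 12, 3 passed the minimum only through the HGG libraries. Kl was among them and had to be lower, so nothing is read from its call.

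**Figure D4:**
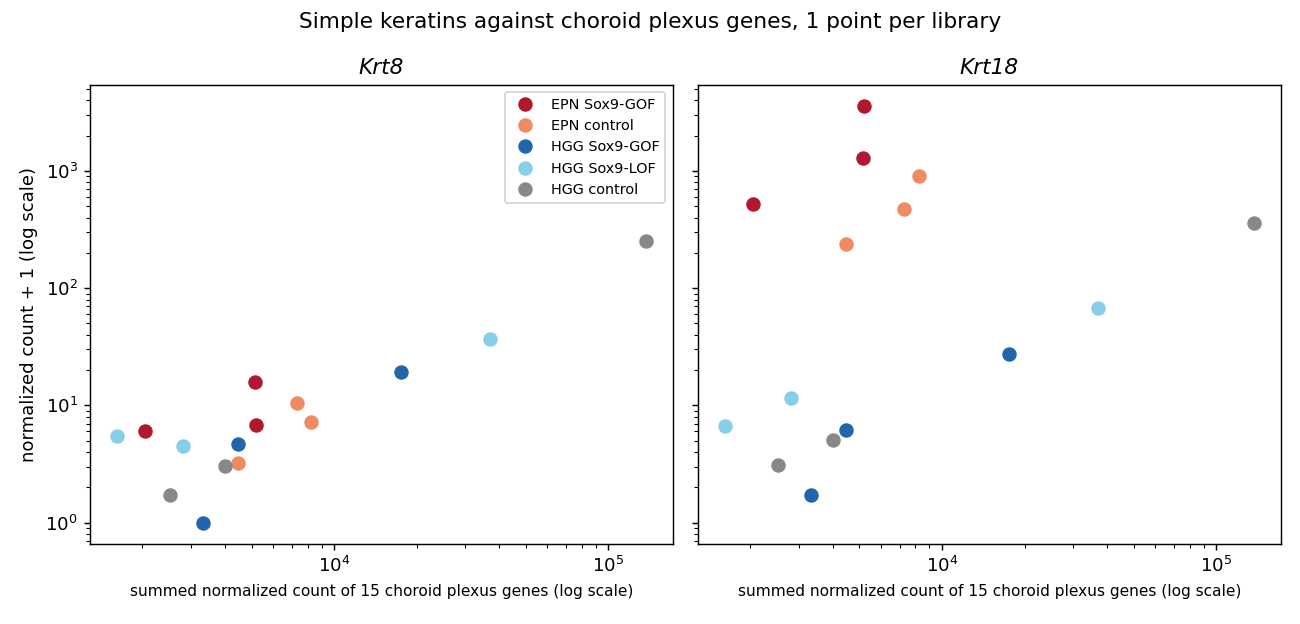
Normalized count + 1 of Krt8 (left) and Krt18 (right) against the summed normalized count of 15 choroid plexus genes, 1 point per library, all axes logarithmic. In HGG both keratins are highest where the choroid plexus sum is highest, in HGG control 1 at 137412, while the EPN libraries hold Krt18 counts of 238 to 3591 at sums of 2047 to 8218.

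The other members of these families showed which companions moved with the 7 genes. Counts refer to EPN Sox9-GOF against HGG Sox9-GOF, where the median log2 difference of all genes was 0.02. In each of the other comparisons limma called no gene of any list. Calls in the lists are to be read against the 40.5% of all genes called in either direction. A gene that is near 0 in 1 group and passed the minimum through the other had to differ, which fixes its direction. Of the other uroplakins, Upk2, a single-span uroplakin, was higher (limma adjusted p = 0.00656), at 49.1 ± 39.2 normalized counts in EPN Sox9-GOF and 94.4 ± 54.2 in EPN controls (SD, n = 3 each). It had 164 reads in EPN Sox9-GOF and 1 in HGG Sox9-GOF, a ratio of normalized reads of 179 (95% counting interval 31.6 to 7100). Upk1a and Upk3a were below the minimum, and Upk3bl, a direct neighbour of Upk3b, differed by -2.11 (limma adjusted p = 0.0627).

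Mesothelial genes outside the 7 were split. Of 9 tested, 4 were higher and 3 lower, or 77.8% called against 40.5% of all genes. Their median log2 difference was 0.11, and 3 of the 9 passed the minimum only through the EPN libraries. Lrrn4, a leucine-rich repeat protein used as a mesothelial marker, was higher by 7.92 (SE 0.83, limma adjusted p = 0.000393), with 823 ± 800 normalized counts in EPN Sox9-GOF and 2.00 ± 2.08 in HGG Sox9-GOF (SD, n = 3 each). Cdh3 (P-cadherin) and Rspo1, an amplifier of WNT signalling, were higher by 5.86 and 3.39 (limma adjusted p = 0.00131 and 0.000288). Gpm6a, a membrane glycoprotein that neurons also express, differed by -3.98 on the log2 scale (limma adjusted p = 7.94e-05), and Calb2 and Nkain4 were the other 2 lower ones. All 12 neuron genes were lower, with a median log2 difference of -4.29.

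Of 13 genes of epithelial junctions and their regulators tested, 4 were higher and 2 lower, or 46.2% called, close to the share of all genes. Their median was -0.08, and 3 passed the minimum only through EPN and 3 only through HGG libraries. Cldn4, a tight junction protein, had 716 reads in EPN Sox9-GOF and 0 in HGG Sox9-GOF, at least 260-fold higher with a floor of 3 reads over the group. Cldn3 and Cdh1 (E-cadherin) were higher by 5.02 and 2.43 (limma adjusted p = 0.00335 and 0.00566), and Ovol2, a repressor that maintains epithelial identity, differed by -3.59 (limma adjusted p = 0.0104). Of 13 desmosome and plakin genes, which anchor keratin filaments, 4 were higher and 1 lower, or 38.5% called, with a median of 0.53. Among them Dsg2 (desmoglein) was higher by 4.45, Dsc2 (desmocollin) by 2.94 and Plec (plectin) by 1.12 (limma adjusted p = 0.000825, 0.00354 and 0.00355). Of 4 stratified keratins tested, Krt17 was higher by 4.99 (limma adjusted p = 0.00424), Krt1 and Krt6a differed by -3.67 and -4.76 (limma adjusted p = 0.00117 and 0.01), and Krt10 did not pass (-0.24, limma adjusted p = 0.558). Of these 4, 1 passed the minimum only through EPN and 2 only through HGG libraries, which fixes their direction. Nothing is read from those calls. The simple keratins Krt7, Krt20 and Krt23 were below the minimum.

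Regulators of the urogenital tract, where Wt1 acts in development, could be tested for 9 genes, 6 of them called higher and 0 lower. Since 7 of the 9 passed the minimum only through the EPN libraries and had to be higher, nothing is read from this count. Nr5a1 (steroidogenic factor) had 14035 reads in EPN Sox9-GOF and 3 in HGG Sox9-GOF, a ratio of normalized reads of 5100 (95% counting interval 1740 to 24700). Gata4 had 3556 reads in EPN Sox9-GOF and 1 in HGG Sox9-GOF, a ratio of 3880 (695 to 153000). Six2 and Gata6 were higher by 6.62 and 4.96 (limma adjusted p = 6.94e-05 and 0.0005).

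Leptomeningeal genes, which mark the covering of the brain, were higher in 6 of 17 and lower in 3, with a median of -0.49. That is 52.9% called, against 40.5% of all genes, and 4 of the 17 passed the minimum only through HGG libraries. Their summed normalized counts were 63169 to 124568 in EPN Sox9-GOF and 61413 to 98033 in EPN controls, and 3343 to 15418 in HGG Sox9-GOF, 4113 to 7509 in HGG Sox9-LOF and 7321 to 12869 in HGG controls, with no gene of the list at 0 reads. Col1a1 and Col1a2, collagen chains of fibroblasts, were higher by 6.92 and 4.12 (limma adjusted p = 2.9e-05 and 0.00387), as were Igf2, a growth factor, by 7.55 and Foxc1, a transcription factor of the meninges, by 2.14 (0.000153 and 0.00162). The 3 lower ones, named after their values were seen, were transporter genes. Slc22a6 differed by -3.80, Slc6a13 by -3.15 and Slc47a1 by -3.03 (limma adjusted p = 0.0165, 0.029 and 0.00802). The list as a whole was thus split, with 8 differences positive and 9 negative. Its summed level was higher in every EPN library than in every HGG library, but a sum follows its most abundant genes and not the whole list. The part of leptomeningeal tissue in the Upk3b and Wt1 values was not tested. Of 13 ependymal and cilia genes, 2 were higher and 3 lower, with a median of -1.21. That is 38.5% called, close to the 40.5% of all genes, and 5 of the 13 passed the minimum only through HGG libraries. Of 12 glial and neural identity genes, 2 were higher and 6 lower, or 66.7% called, with a median of -1.91.

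The direct neighbours of the 7 genes, 12 genes outside the 7 themselves, were looked at as well. Of 7 tested, 2 were higher and 1 lower, and 4 did not pass, or 42.9% called, close to the 40.5% of all genes. Of these 7, 1 (Wt1os) passed the minimum only through EPN and 2 (Krt9 and Upk3bl) only through HGG libraries. Their directions were thus fixed, and nothing is read from them. Wt1os, an antisense RNA that starts 18 bases from Wt1, averaged 88.0 ± 47.4 normalized counts in EPN Sox9-GOF and 125 ± 35.9 in EPN controls (SD, n = 3 each), and had no reads in any of the 9 HGG libraries. It was at least 110-fold higher in EPN Sox9-GOF than in HGG Sox9-GOF, with the same floor. In GENCODE M21 Wt1 and Wt1os lie side by side without overlap. The strand setting of the counting is not given, and how far their reads were told apart was not tested. Dtx2, the gene before Upk3b, averaged 745 ± 321 normalized counts in EPN Sox9-GOF and 118 ± 27.3 in HGG Sox9-GOF (SD, n = 3 each), higher by 2.55 on the log2 scale (SE 0.38, limma adjusted p = 0.00164). Krt9, beside Krt19, was lower, with a log2 difference of -4.40 (SE 0.70, limma adjusted p = 0.0021). Eif4b, on the far side of Krt18 from Krt8, differed by -0.22 (limma adjusted p = 0.432), B4galt4, beside Upk1b, by 0.26 (0.393) and Narfl, beside Msln, by 0.32 (0.296), and Upk3bl is given above.

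Among 14279 genes with a mean of at least 10, those whose log2 levels over the 15 libraries were most like Upk3b were Slc6a14, an amino acid transporter (r = 0.997), Wt1os (0.994), Cela3b (0.991), Mir7686 (0.989) and Akr1cl (0.987). For Wt1 they were Nr5a1 (0.976), Nr0b1 (0.971), Wnt10a (0.968), Snx2 (0.967) and Stt3a (0.967), and for Krt18 Klhdc7a (0.964), Cgnl1 (0.963), Lman2 (0.956), R3hcc1l (0.956) and Gpihbp1 (0.948). These correlations follow the difference between the models, which all 15 libraries share. Between the 7 genes, r was 0.964 for Upk3b with Wt1 and 0.823 for Upk3b with Krt18, but 0.152 for Upk3b with Msln.

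With group means removed, the nearest genes changed. For Upk3b they were Cst12 (0.941), Serpina5 (0.937), Ywhaq (0.930), Slc6a14 (0.901) and Jade3 (0.894). For Wt1 they were Ccdc132 (0.905), B3gnt8 (0.902), Snx2 (0.869), Fam92a (0.862) and Naglu (0.852). For Krt18 they were Calml4 (0.968), Slc2a12 (0.937), Enpp2 (0.937), Krt8 (0.932) and Cox8b (0.930), and Enpp2 is a choroid plexus gene of the list above. Within the 6 EPN libraries, group means removed, Krt18 with Krt8 gave r = 0.331, and Upk3b with Wt1 gave 0.854.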

How the data were processed

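Polyadenylated RNA of 15 mouse brain tumours was sequenced from stranded libraries, per the labels' protocols. The submitters' processing notes name mm10, STAR 2.5.0a and DESeq2 1.30.1. Neither these notes nor the labels state the counting tool or its strand setting. The authors deposited 3 tables of a normalized signal, which the values show to be read counts divided by a size factor per library, so that 100% of values came out as whole reads within 0.001. HGG controls are the same in both HGG tables.

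Levels are recovered reads rescaled together over 15 libraries by the median of ratios. TPM was computed from exon lengths of GENCODE M21. Groups and replicate numbers come from the titles. Fold changes come from limma 3.58.1 (R 4.3.3, trended variance) on log2(normalized count + 1), which understates low genes, for genes with a mean of at least 10 in the 6 libraries compared. The comparisons with controls used the deposited values, and EPN against HGG used recovered reads rescaled together. The threshold was an adjusted p of 0.05. edgeR 4.0.16 and DESeq2 1.42.0 on recovered reads were alternatives, and the script was tested on simulated data.

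The 7 genes, the 13 gene lists and the tests were chosen with earlier results of these data known. Up to 4 genes per list were named by smallest adjusted p. Correlated genes were the 5 highest by r, leaving out predicted models and 27 names turned into dates. The neighbours, the keratin survey, the TATAA search and the promoter window were chosen after values or sequences were seen.

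Same-numbered libraries deviated together in HGG Sox9-GOF and HGG controls (correlations 0.178, 0.443 and 0.224). Adding the replicate number as a block changed no call of the 7 genes and no count of calls there (0 genes).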

Additional observations from a re-analysis of the deposited data

Results flagged for a closer look

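For Msln, Upk1b and Krt19, every EPN Sox9-GOF library was below the arithmetic mean of the normalized counts of the EPN controls, and every HGG Sox9-GOF library above that of the HGG controls. For Krt19 this is marginal, with EPN Sox9-GOF library 3 at 36.5 against a control mean of 36.9, above the lowest EPN control at 5.64, and with means taken on the log2 scale it does not hold. The log2 effect in EPN minus the effect in HGG was -5.39 for Msln, -3.51 for Upk1b and -1.14 for Krt19. The difference was not tested, since it holds both control groups on which the choice of genes rested. For Msln the effects were -2.99 in EPN and 2.41 in HGG, and for Upk1b -1.69 in EPN and 1.82 in HGG, where it was below the minimum mean. For Krt19 they were -0.55 in EPN and 0.59 in HGG, the second from 3 reads in HGG Sox9-GOF and 1 in HGG controls. None of these effects passed the threshold within its model by limma.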

How the results depend on the processing

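The calls of Upk3b, Wt1, Krt18 and Krt19 in EPN Sox9-GOF against HGG Sox9-GOF held under all 13 alternatives, with adjusted p of at most 0.00123, 0.00279, 0.00608 and 0.0228. Their log2 differences ran from 6.81 to 11.75, 6.26 to 7.88, 6.58 to 8.79 and 1.69 to 4.65, lowest with a pseudocount of 8. Upk3b and Krt19 passed the minimum in this comparison only through the EPN libraries. They had to differ, so nothing is read from their calls holding. Wt1 and Krt18 were just above the minimum in HGG Sox9-GOF, at means of 10.5 and 10.7. The genes called there numbered 4733 to 5670 when 1 library was left out and 5492 to 6913 otherwise (6160 as reported). Msln passed the threshold under 1 alternative, without EPN Sox9-GOF library 2 (-2.98, adjusted p 0.0491, in a range up to 0.319). Counts of called genes against controls depended on the method. In EPN Sox9-GOF, DESeq2 called 842 genes, a spread shared by all 15 libraries gave 129, and leaving out 1 library gave 0 to 5. In HGG Sox9-GOF these were 2260, 2253 and 0 to 0, and in HGG Sox9-LOF 1339, 1108 and 0 to 6. None of these calls was one of the 7 genes, but members below the minimum could not be called. Those were Krt8 in EPN, and Upk3b, Upk1b, Wt1 and Krt19 in both HGG comparisons. The cause of the differing counts was not tested. Signs turned when 1 library was left out, among differences past no threshold. Against HGG Sox9-GOF, Upk1b ran from -0.91 to 0.25 in EPN Sox9-GOF. In EPN Sox9-GOF against controls, Upk3b ran from -1.26 to 0.065, Wt1 from -0.68 to 0.22 and Krt19 from -1.54 to 0.10. In HGG Sox9-GOF, Krt8 ran from -2.64 to 0.99 and Krt18 from -2.70 to 0.74. In HGG Sox9-LOF, Krt8 ran from -1.52 to 2.03 and Krt18 from -1.31 to 2.08. Of 230 recomputed values, 216 kept direction and side. With the replicate block, 5492 genes were called between the models and 0 against each control group. Outside HGG Sox9-GOF the replicate numbers did not pair the samples (correlations -0.21 to 0.297). Low reads limit Upk1b, Krt8 and Krt19 in most libraries.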

Other observations

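Filament genes outside the keratins also differed between the Sox9-GOF tumours of the 2 models. Of 14 tested, 5 were higher and 5 lower in EPN Sox9-GOF than in HGG Sox9-GOF. That is 71.4% called, against 40.5% of all genes. Vim (vimentin, the filament of mesenchymal and glial cells) was higher by 1.58 on the log2 scale (SE 0.25, limma adjusted p = 0.00205) and Lmna, a nuclear lamin, by 1.49 (SE 0.26, limma adjusted p = 0.00336). The neuronal filament genes Ina and Nefl differed by -3.85 and -4.20 (limma adjusted p = 0.000293 and 0.00183).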
